A study of Mus musculus with 6 samples.

Results

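Spermatogonia leave the stem cell state and commit to sperm formation under a small set of regulators, and 7 of these genes are described here: Kit, Stra8, Sohlh1, Sohlh2, Dmrt1, Dmrtb1 and Neurog3. They were chosen by gene symbol from the platform's annotation, which assigned them 10 probes, out of 45281 probes and 19057 named genes on the array. Total RNA of whole testis from FVB mice at postnatal day 4 was hybridised to Illumina bead arrays. There were 3 arrays of mice labelled Foxo1 null and 3 arrays of mice labelled wild type. The labels name no Foxo1 allele, Cre driver or littermate relation, and do not say whether a sample is 1 animal or a pool, so the p-values below measure only the spread between these samples. The study's title places the comparison in the question of whether Foxo1, a forkhead transcription factor, is needed for spermatogonial stem cells and for the start of spermatogenesis.

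In the young testis, stem and progenitor spermatogonia become differentiating spermatogonia when retinoic acid acts on them. This step is marked by the appearance of the receptor tyrosine kinase KIT, whose ligand comes from Sertoli cells, and by induction of Stra8, a retinoic acid target needed for meiotic entry. The basic helix-loop-helix factors SOHLH1 and SOHLH2 act in spermatogonia to promote differentiation and Kit expression, and bind DNA at E-boxes. DMRT1, a DM domain factor of Sertoli cells and spermatogonia, restrains meiotic entry and Stra8 in mice and sustains Sohlh1. DMRTB1, also called DMRT6, acts later in the switch from mitosis to meiosis, and NEUROG3 is a basic helix-loop-helix factor of early progenitors.

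The upstream sequences of Stra8 and Sohlh1 are shown because these genes had the widest spread over the arrays among the tested members. Their windows also hold matches to a retinoic acid receptor half-site or to the E-box. The windows are the 250 bases before an annotated RefSeq transcript start on GRCm38.p6, written 5′ to 3′ on the gene's strand. Capitals mark matches on either strand to the E-box CANNTG and to the retinoic acid receptor half-site AGGTCA. The Stra8 window lies at chr6:34920698-34920947 on the plus strand and the Sohlh1 window at chr2:25847249-25847498 on the minus strand.
Stra8: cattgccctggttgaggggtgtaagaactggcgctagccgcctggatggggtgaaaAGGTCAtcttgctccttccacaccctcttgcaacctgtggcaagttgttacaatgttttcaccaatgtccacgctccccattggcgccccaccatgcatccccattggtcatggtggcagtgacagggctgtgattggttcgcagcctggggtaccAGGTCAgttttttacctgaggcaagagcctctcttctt
Sohlh1: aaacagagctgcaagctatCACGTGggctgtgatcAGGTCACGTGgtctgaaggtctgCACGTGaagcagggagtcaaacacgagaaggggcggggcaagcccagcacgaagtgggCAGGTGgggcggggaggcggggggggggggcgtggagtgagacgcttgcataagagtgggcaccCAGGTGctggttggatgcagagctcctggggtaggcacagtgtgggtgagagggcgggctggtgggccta

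The Stra8 window held 2 half-sites and 0 E-boxes, and the Sohlh1 window 5 E-boxes and 1 half-site, which overlaps an E-box. Over all 32817 promoter windows of this length, 66.2% held an E-box and 14% a half-site, so that 1 match of either kind is not rare. The mean numbers of matches per window were 1.16 and 0.155. How often a window held 5 E-boxes or 2 half-sites was not counted. Both windows of Kit held 0 E-boxes, those of Sohlh2 and Neurog3 1 each, and those of Dmrtb1 3 and 2. No motif of DMRT1 was searched. The forkhead motif GTAAACA, present in 3.16% of all windows, was found in 0 of the windows of the 6 members that RefSeq's table held (Kit, Stra8, Sohlh1, Sohlh2, Dmrtb1 and Neurog3), which says only that these letters are not in these windows. Dmrt1 was not matched.

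Between 20107 and 21665 probes were detected per array (44.4% to 47.8%), a probe being detected when a share under 0.05 of the array's negative controls reached its signal (its detection p-value). Defining markers of testis were present: Sox9, Amh, Gata4 and Fshr of Sertoli cells, Insl3 and Cyp17a1 of Leydig cells and Dazl and Ddx4 of germ cells were detected on all 6 arrays. Of the other germ cell markers examined, Dnd1 was detected on all 6 arrays, Tdrd1 on 3 wild-type and 1 null, and Mael on none. Foxo1 itself differed between the groups at its tested probes in opposite directions, lower in null at ILMN_2656498 (-1.81, SE 0.22, adjusted p = 0.0273, limma) and higher at ILMN_2509340 (3.36, SE 0.20, adjusted p = 0.00221, limma). Where these probes lie within the gene was not analysed here. Wild-type replicate 3 stood apart in germ cell genes, being the highest wild-type array at 15 of 16 tested genes of a list of germ cell markers, against 34.4% of all named genes tested. Values of Stra8, Sohlh1, Dmrt1, Neurog3, Rhox10 and Upp1 are therefore given with and without it. In bulk tissue, fewer cells of a type and less RNA per cell cannot be told apart.

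None of the 7 genes passed the test between null and wild type. Of the 10 probes, 7 probes of 5 genes were detected on at least 3 arrays and were tested. The other 3 probes, the only probe of Dmrtb1, the only probe of Neurog3 and the dimmest of Kit, missed that filter. Of the 7 tested member probes, 0 passed an adjusted p-value of 0.05 (limma, Benjamini-Hochberg over all tested probes), where 0.136% of 20597 tested probes did (28 probes). At an unadjusted p under 0.05 there were also 0 of 7, against 8.79% of all tested probes. The null and wild-type arrays overlapped at all 7 tested member probes, while at 14.0% of all tested probes they did not. Of the 5 genes, each taken at its brighter tested probe, 4 had a value above 0 and Sohlh1 a value below 0, with a median of 0.20 on the log2 scale against 0.011 over all 11145 named genes tested. The members' median was 0.05 without null replicate 3 and 0.40 without null replicate 2.

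**Figure D1:**
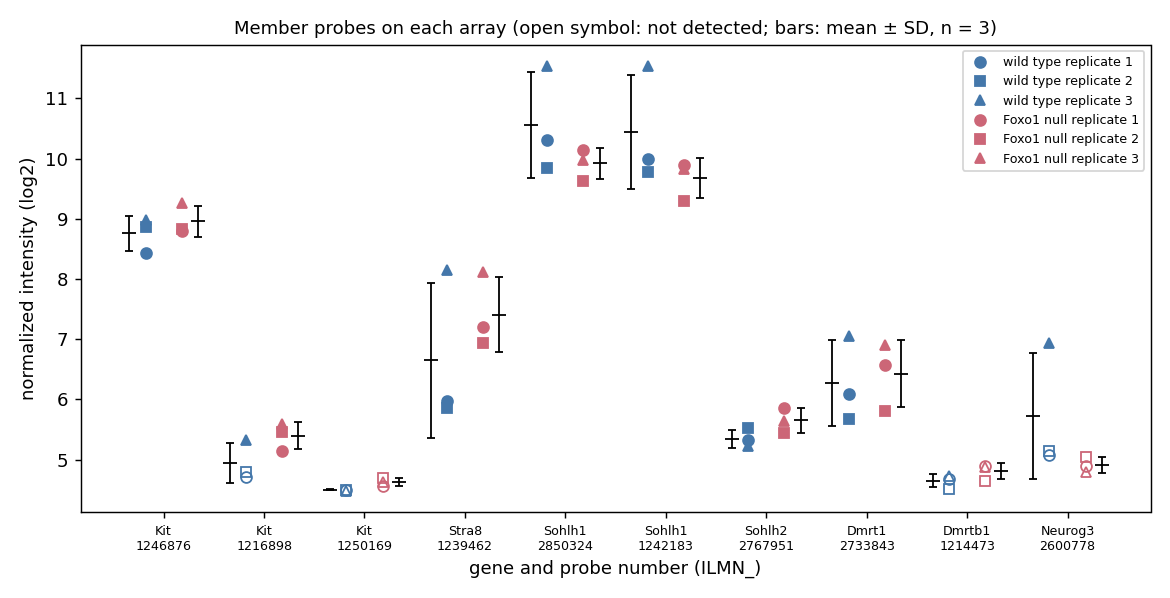
Normalized log2 intensity (vertical axis) of the 10 member probes (horizontal axis) on the 3 wild-type (blue) and 3 Foxo1 null (red) arrays, with black bars for mean ± SD (n = 3). Open symbols are arrays where the probe was not detected. Wild-type replicate 3 lies well above the other wild-type arrays at Stra8, both Sohlh1 probes, Dmrt1 and Neurog3.

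Kit was measured by 3 probes whose brightness differed. At the brightest, ILMN_1246876, the scanner signals were 411.1, 523.8 and 575.6 on the wild-type arrays and 573.7, 537.6 and 832.4 on the null arrays. After normalization these became log2 intensities of 8.44, 8.87 and 8.98 in wild type and 8.79, 8.83 and 9.26 in null. Null replicate 3 was the highest and wild-type replicate 1 the lowest, with the other 4 arrays between them. The means were 8.76 ± 0.29 (SD, n = 3) and 8.96 ± 0.26 (SD, n = 3), a difference of 0.20 (SE 0.20, 95% interval -0.26 to 0.66, adjusted p = 0.873, limma). It was 0.04 when wild-type replicate 1 and 0.05 when null replicate 3 was left out, and 0.41 with array weights.

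The second Kit probe, ILMN_1216898, lay close to background and was detected on 1 wild-type and 3 null arrays. Its log2 intensities were 4.71, 4.80 and 5.32 in wild type and 5.14, 5.46 and 5.59 in null. Null replicate 1 lay below wild-type replicate 3, so the groups overlapped. The difference of 0.45 (SE 0.21, 95% interval -0.02 to 0.93) had an unadjusted p = 0.0588 and an adjusted p = 0.584 (limma). The probe met the detection filter only through the null arrays, where its values were higher. It is counted among the 7 tested probes, but its p depends on that filter and is not comparable with those of the other members. The third probe, ILMN_1250169, was detected on no array, with signals from 101.1 to 128.3. The platform's annotation assigns this probe and the second to cDNA clones and the brightest to the reference transcript.

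KIT is also carried by mast cells and Leydig cells, so their markers are given beside it. Of 5 tested mast cell genes, 4 had an unadjusted p under 0.05 and higher values in null, 0 were called, and the median difference was 1.28. The summed linear intensity of these genes was 1540 to 1880 on the wild-type and 2000 to 2230 on the null arrays. Hdc weighs most in this sum, being the brightest of the 5, and was the only 1 with a value below 0 (-0.20). The mast cell receptor genes Fcer1a and Ms4a2 were not detected on any array. Of the tested mast cell genes, Cpa3 and Cma1 were each detected on 2 wild-type and 3 null arrays. The mast cell score, each array's mean difference from the wild-type mean over these genes, was -0.36, 0.19 and 0.17 in wild type. On null replicates 1, 2 and 3 it was 1.37, 0.71 and 0.94. All 8 tested Leydig cell genes had values below 0 (median -0.21), of which 0 were called, and their summed intensity was 10000 to 16600 in wild type and 8680 to 11900 in null. The part of these cells in the Kit signal was not tested.

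Kitl, the KIT ligand, had 3 probes that were near background and not tested. The brightest was detected on 1 wild-type and 1 null array, with signals of 112.8, 134.6 and 130.5 in wild type and 114.8, 130.9 and 147.9 in null. Of 12 tested genes of the Kit pathway, 0 were called, 7 had values below 0 and 5 above 0, and the median was -0.05 (0.08 with median scaling). The smallest unadjusted p was that of Pik3cd, a catalytic PI3-kinase subunit best known from leukocytes, with a difference of -0.94 (SE 0.19, adjusted p = 0.132, limma). Pik3r1, a regulatory PI3-kinase subunit, had 0.62 (SE 0.20, adjusted p = 0.399, limma). The values of Stat5a, a signal transducer, and Mtor, a growth kinase, were -0.50 (SE 0.24) and -0.31 (SE 0.18). At Pik3cd the null arrays lay below, and at Pik3r1 above, all wild-type arrays. Pik3cd was at background on null replicates 1 and 2. Its log2 intensities there, 4.90 and 4.72, were below the lowest detected values of those arrays (5.06 and 5.13). It met the detection filter mainly through the wild-type arrays, where its values were higher, so its p and the gap between its groups depend on that filter.

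Stra8 varied the most of the tested members. Its scanner signals were 145.6, 149.7 and 371.5 in wild type and 250.1, 220.9 and 436.9 in null, and its log2 intensities 5.97, 5.85 and 8.15 against 7.20, 6.93 and 8.11. Wild-type replicate 3 and null replicate 3 were nearly equal and far above the rest, and the other 2 null arrays lay above the other 2 wild-type arrays. The means were 6.65 ± 1.29 (SD, n = 3) and 7.41 ± 0.62 (SD, n = 3), a difference of 0.76 (SE 0.58, 95% interval -0.58 to 2.09, adjusted p = 0.80, limma). The size depended on single arrays. It was 0.36 when wild-type replicate 2 was left out, and 0.41 both when wild-type replicate 1 and when null replicate 3 was. Without wild-type replicate 3 it was 1.5 (SE 0.33) with an unadjusted p = 0.00221, which still missed the threshold over all probes (adjusted p = 0.284, limma). On wild-type replicate 3 Stra8 was 4.71-fold above the mean of the other wild-type arrays. Of all tested probes, 1.05% exceeded that mean on this array by at least 1 log2 unit.

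The standard error of the scanner signal over 24 to 71 beads was 3.16% to 8.62% of that signal, with a median of 4.55%. These values cover the 10 probes and 6 arrays. The scanner signal includes background, which makes up much of it at dim probes. The shares are therefore not on the scale of the background-corrected log2 intensities. Bead noise was not tested against the gaps between arrays.

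Sohlh1 was detected on all 6 arrays by 2 probes, which gave the same picture. At ILMN_2850324 the log2 intensities were 10.31, 9.84 and 11.54 in wild type and 10.14, 9.63 and 9.98 in null. At ILMN_1242183 they were 10, 9.78 and 11.53 in wild type and 9.90, 9.30 and 9.83 in null. At either probe wild-type replicate 3 was the highest array and null replicate 2 the lowest, and the 2 remaining null arrays lay between wild-type replicates 1 and 2. The differences were -0.65 (SE 0.39, 95% interval -1.53 to 0.24, adjusted p = 0.712, limma) and -0.76 (SE 0.42, 95% interval -1.73 to 0.20, adjusted p = 0.677, limma). Without wild-type replicate 3 they were -0.16 (SE 0.22) and -0.22 (SE 0.22), and the adjusted p-values 0.896 and 0.84 (limma). That array was 2.77-fold and 3.12-fold above the mean of the other wild-type arrays at the 2 probes. Over the 6 arrays the probes correlated with each other at r = 0.99 (rho = 1), a description of 2 measurements of 1 transcript on the same arrays.

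Sohlh2, the partner of SOHLH1, was near background but detected on all 6 arrays. Its log2 intensities were 5.33, 5.52 and 5.22 in wild type and 5.86, 5.45 and 5.64 in null. Null replicate 2 lay below wild-type replicate 2, and the other null arrays above all wild-type arrays. The difference was 0.30 (SE 0.17, 95% interval -0.08 to 0.68, adjusted p = 0.684, limma). Unlike the other tested members, Sohlh2 was lowest within wild type on replicate 3, at 0.866 times the mean of the other wild-type arrays.

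Of 17 tested partners and targets of the SOHLH and DMRT factors, 1 was called, and 7 had values below 0 and 10 above 0, with a median of 0.09. The called gene was Nanos2, an RNA-binding protein of male germline stem cells (-1.91, SE 0.20, adjusted p = 0.0239, limma). Id4 and Id2 encode inhibitors of basic helix-loop-helix factors. Their values were -1.33 (SE 0.29, adjusted p = 0.188, limma) and 0.80 (SE 0.31, adjusted p = 0.501, limma), with the null arrays below and above all wild-type arrays. Dmrt3, a further DM domain gene, had -0.59 (SE 0.19, adjusted p = 0.398, limma).

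Dmrt1 had log2 intensities of 6.09, 5.67 and 7.05 in wild type and 6.57, 5.81 and 6.90 in null. In each group replicate 3 was the highest and replicate 2 the lowest, and the ranges of the groups nearly coincided. The difference of 0.16 (SE 0.38, 95% interval -0.72 to 1.03, adjusted p = 0.965, limma) had no settled direction. Leaving out wild-type replicate 3 gave 0.55, while leaving out wild-type replicate 2 or null replicate 3 turned the sign, to -0.14 and -0.08. Dmrt1 is also made by Sertoli cells, whose 13 tested genes had a median difference of 0.03 with 0 called, and summed intensities of 57800 to 67800 in wild type and 58700 to 71500 in null.

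Neurog3 was detected on 1 array of 6, wild-type replicate 3. Its scanner signals were 119.6, 129.8 and 221 (wild type) and 117.6, 137.5 and 135.2 (null). The wild-type mean of the normalized log2 intensity was 5.72 ± 1.05 (SD, n = 3). The null mean was 4.91 ± 0.13 (SD, n = 3), with the gene not well above background. Without wild-type replicate 3 the wild-type mean was 5.11 and the gene was detected on 0 arrays of either group, so no fold is given. With no filter on dim probes the Neurog3 difference over all arrays was -0.81 (SE 0.45, adjusted p = 0.812, limma). That value rests on wild-type replicate 3, at 6.93, with the other wild-type arrays at 5.07 and 5.15, and is not read as a fold.

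Dmrtb1 was not detected on any array. Its signals were 108.6, 109.8 and 125.2 in wild type and 117.5, 124.4 and 138.8 in null, with detection p-values of 0.096 to 0.59. No level of Dmrtb1 could be told from background in either group.

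**Figure D2:**
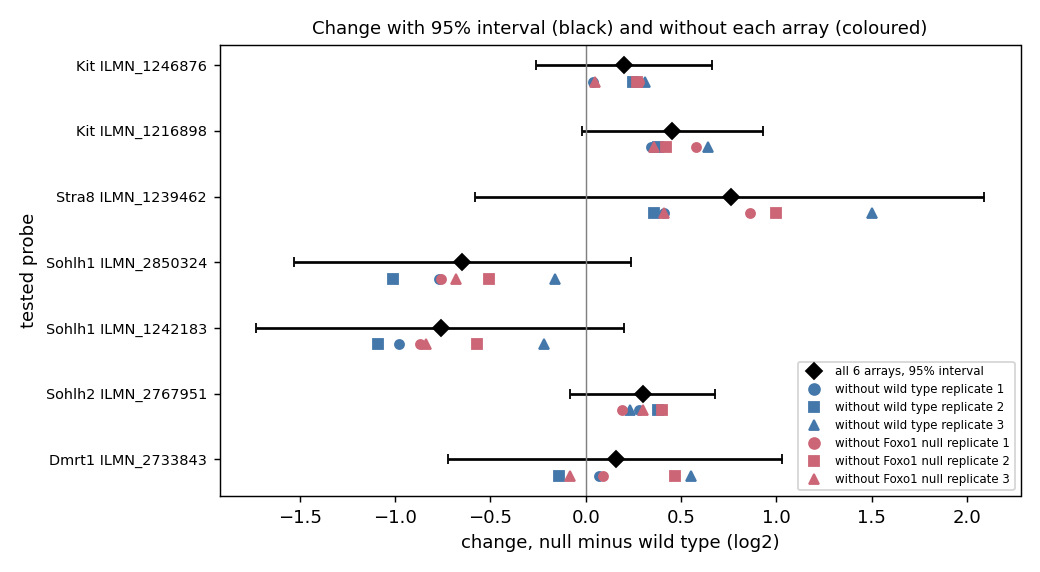
Difference between null and wild type on the log2 scale (horizontal axis) for the 7 tested member probes (vertical axis), with the 95% interval in black and the value without each array in turn as coloured symbols. Every interval includes 0. Leaving out wild-type replicate 3 (blue triangles) moves Stra8 from 0.76 to 1.5 and Sohlh1 from -0.65 to -0.16.

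The members differed in how they followed one another over the arrays. Stra8 and Dmrt1 ran together (r = 0.89, rho = 0.94 over 6 arrays). Stra8 and brightest-probe Kit gave r = 0.74 and rho = 0.54, and Sohlh1 (ILMN_2850324) and Dmrt1 gave r = 0.68 and rho = 0.71. The dimmer tested Kit probe gave r = 0.85 and rho = 0.66 with Stra8. That probe lay close to background and met the detection filter only through the null arrays. Sohlh1 showed no such relation with brightest-probe Kit (r = 0.04, rho = -0.09), and its correlation with Sohlh2 was negative (r = -0.55, rho = -0.43). These correlations are descriptions over 6 arrays whose names share a leading number, and Stra8 and Dmrt1 were each highest on replicate 3 of either group. Among all named tested probes of other genes, the nearest patterns to brightest-probe Kit were Tm7sf3 (r = 0.99), Pcm1 (r = 0.981) and Pisd-ps2 (r = 0.977). For Stra8 they were Radx (r = 0.989), Zscan21 (r = 0.988) and Olfr270 (r = 0.987), and for Sohlh1 they were Rbm12 (r = 0.997), Srebf2 (r = 0.99) and Unc119b (r = 0.988). Sohlh2 was nearest to Igf2 (r = 0.998), Dst (r = 0.993) and Zfp446 (r = 0.99), and Dmrt1 to Elp5 (r = 0.992), Egfr (r = 0.985) and Ublcp1 (r = 0.979). None of these genes was called, and their likeness is taken over the 6 arrays alone.

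Other genes of spermatogonial differentiation were set beside the members. Of 13 tested genes of this list, 0 were called, 5 had an unadjusted p under 0.05 with lower and 1 with higher values in null, and the median was -0.38. That median was 0 without wild-type replicate 3, and between -0.46 and -0.25 when any other array was left out. Rhox10, an X-linked homeobox gene of spermatogonia, had a difference of -1.78 (SE 0.48, adjusted p = 0.281, limma) with log2 intensities of 6.78, 6.60 and 8.33 in wild type and 6.16, 5.32 and 4.88 in null. Upp1, a uridine phosphorylase, had -1.02 (SE 0.39, adjusted p = 0.483, limma). Without wild-type replicate 3 these differences were -1.24 (SE 0.34, adjusted p = 0.373, limma) and -0.49 (SE 0.16, adjusted p = 0.448, limma). At both genes the groups did not overlap, and wild-type replicate 3 was again the highest. The differences of Ccnd1, a G1 cyclin, and Kdm1b, a histone demethylase, were 0.73 (SE 0.23) and -0.53 (SE 0.20).

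Of 14 tested genes of the retinoic acid response and meiotic entry, 0 were called, 11 had values below 0 and 3 above 0, and the median was -0.19. It ranged from -0.48 without null replicate 3 to -0.01 when wild-type replicate 3 was left out, and turned to 0.14 with array weights. Syce3, a component of the synaptonemal complex, had the smallest p, with a difference of -0.79 (SE 0.21, adjusted p = 0.293, limma). Spo11, which makes meiotic DNA breaks, had -0.65 (SE 0.37). The values of Cyp26b1, which degrades retinoic acid, and Rarb, a retinoic acid receptor, were 0.28 (SE 0.21) and 0.31 (SE 0.25). Both are among the 3 genes above 0, and Rarb was near background (means of 5.13 in wild type and 5.44 in null).

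The germ cell lists lay lower in null than the members did. Of 16 tested genes found in germ cells of several stages, all 16 had values below 0, 0 were called, and the median was -1.02. Of all 11145 named genes tested, 5341 had values below 0. The germ cell median was -0.76 without wild-type replicate 3 and ranged from -1.18 to -0.76 when any 1 array was left out. Without background correction it was -0.65. Of 15 tested genes of undifferentiated spermatogonia, 2 were called lower (Nanos2 and Foxo1 at ILMN_2656498), 13 had values below 0, and the median was -1.41. Foxo1 is the targeted gene, and its other tested probe was higher in null; without Foxo1, 1 of 14 was called and the median was -1.37. The germ cell score, each array's mean difference from the wild-type mean over the 16 genes, was -0.12, -0.30 and 0.42 in wild type and -0.75, -1.42 and -0.84 in null. On the same arrays Stra8 stood at -0.69, -0.80 and 1.49 in wild type and 0.55, 0.27 and 1.45 in null. Brightest-probe Kit stood at -0.32, 0.11 and 0.21 in wild type and 0.03, 0.06 and 0.50 in null. Sohlh1, at -0.43, -0.93 and -0.58 on the null arrays, came nearest to the germ cell score. This depended on wild-type replicate 3, where Sohlh1 stood at 0.98. Without that array the Sohlh1 difference was -0.16, against -0.76 for the germ cell median. Whether the members differ from these lists was not tested.

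Relative to the germ cell score of the same array, a measure chosen after the values were seen, Stra8 stood at -0.57, -0.50 and 1.07 in wild type and at 1.30, 1.69 and 2.29 in null. Kit, Stra8, Sohlh2 and Dmrt1 then had null arrays above all wild-type arrays, and Sohlh1, with group means of 0 and 0.36, did not. On this scale 83.1% of all tested probes had null arrays above all wild-type arrays, since the subtracted score is itself lower in null, so the 4 genes did as most of the array did. Markers of macrophages and of duct and rete epithelium were higher in null by medians of 0.56 and 0.90, with 0 of 11 called in either list. Their part in the members' values was not tested. Some duct genes met the detection filter only through the null arrays, where they were higher, which raises that median. Pax8 was detected on 0 wild-type and 3 null arrays and Krt19 on 1 and 3, while Krt8, Cdh16 and Lcn2 were detected on all 6 arrays.

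**Figure D3:**
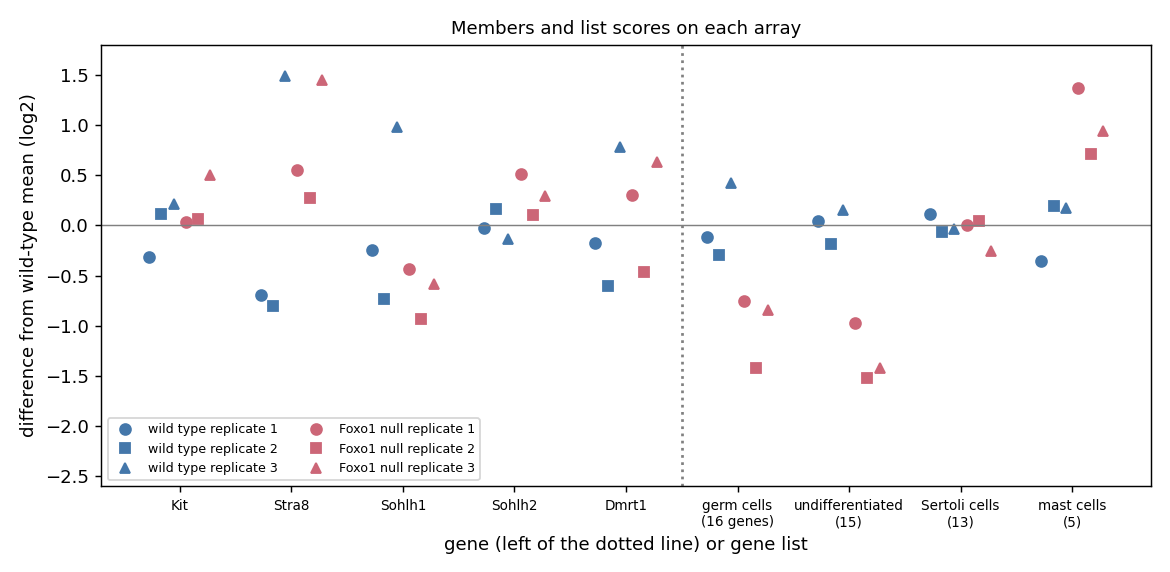
Difference of each array from the wild-type mean on the log2 scale (vertical axis) for the 5 tested members (left of the dotted line) and for the mean of 4 gene lists (right, with the number of tested genes). The null arrays (red) lie below all wild-type arrays (blue) for the germ cell and undifferentiated spermatogonia lists, and overlap them for each of the members.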

How the data were processed

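Illumina bead arrays of 6 testis samples, 3 per group, were analysed. For each probe the deposited scanner file gives, per the file headers, a mean intensity, its standard error over beads, a count of beads and a detection p-value; it was neither normalized nor background-subtracted. Per the submitters' processing notes the software was BeadStudio, with no version given. A second table of the authors' normalized intensity values, which ranked probes as the scanner did (Spearman correlation 1 on every array), served as an alternative.

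Intensities were processed with neqc of limma 3.58.1 (R 4.3.3): background estimated from the detection p-values, an offset of 16, quantile normalization, log2. Differences are null minus wild type. Because of the offset, log2 differences of dim probes are understated. Probes detected (p under 0.05) on at least 3 arrays were tested (20597 of 45281) with lmFit and eBayes, two-sided, without covariates, with Benjamini-Hochberg adjustment over all tested probes. The number of arrays limits the precision.

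Symbols come from the platform annotation (34885 probes with 1 symbol, 18 with several, 10378 with none), updated by Entrez number, which changed 0. The lists use 1 probe per gene, the tested one with the highest mean. Named from each list were up to 4 genes with the smallest p, and for each member the 3 most correlated probes. Members and lists were chosen with earlier results of these data known. Promoter windows are from RefSeq. Replicate numbers follow the order of the arrays, and the labels name no pairs, so the samples were fitted as unpaired. Same-numbered arrays correlated at 0.158, -0.096 and 0.106 in their deviations from group means. These low values cannot exclude a pairing of the samples. The 16 alternatives are given in the closing section.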

Additional observations from a re-analysis of the deposited data

How the results depend on the processing

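The 7 tested member probes gave 111 values over 16 alternatives, 6 of which leave out 1 array. Of these values 0 were called and 109 kept their direction. Their adjusted p-values ranged from 0.196 to 0.999 (limma). The 0.196 was that of the second Kit probe, ILMN_1216898, which met the detection filter only through the null arrays. Among the other probes the smallest was 0.281, for Stra8 (limma). Dmrt1 turned to -0.14 and -0.08 when 1 array was left out (range -0.14 to 0.55). The ranges without 1 array were 0.36 to 1.5 for Stra8 and -1.01 to -0.16 and -1.09 to -0.22 for the Sohlh1 probes. With the replicate block the counts of called probes were 51 lower and 17 higher, against 26 and 2, and Stra8 had 0.76 (SE 0.26, adjusted p = 0.421, limma); not every sample correlated best with its own number. The counts lower and higher were 53 and 9 without background correction, 74 and 13 with an offset of 50, 45 and 8 with the authors' values, 1 and 1 without a filter, 17 and 1 with detection on all 6 arrays, 85 and 18 with a trended robust prior, and 83 and 26 with array weights. Median scaling gave 12 lower, and a covariate for the letter that ends each array's name gave 6 higher. Without 1 array they ranged from 0 to 46 lower and from 1 to 24 higher. The list medians moved by more than the array spread for undifferentiated spermatogonia (-0.80 without background correction, -1.18 with an offset of 50, -0.78 with the authors' values), mast cells (0.57 and 0.55 without background correction and with the authors' values), macrophages (0.30 in both), the Kit pathway (0.08 with median scaling, which shifts all probes by a median of 0.118) and Sertoli cells (-0.16 with array weights). Without 1 array the medians ranged from 0 to 0.08 for SOHLH and DMRT partners and from 0.53 to 1.48 for duct and rete epithelium. With array weights the median of retinoic acid response and meiotic entry was 0.14, against -0.19. The values without Foxo1, and those of Neurog3, Rhox10 and Upp1 without wild-type replicate 3, were added after seeing the data. The cause of these moves was not tested.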

Other observations

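Wild-type replicate 3 was the highest wild-type array at 4 of the 5 tested members and at 15 of 16 tested germ cell genes. It exceeded the mean of the other wild-type arrays by at least 1 log2 unit at 216 of 20597 tested probes, among them Stra8 (2.24), both Sohlh1 probes (1.47 and 1.64) and Dmrt1 (1.17).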
